A study of Mus musculus with 2 samples.

Results

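The genes described here encode the anchoring structure between basal epithelial cells and the basement membrane. They are 9 of the 32285 genes in the matrices: Itga6, Itgb4, Col17a1, Dst, Plec, Lama3, Lamb3, Itga3 and Itgb1. All were chosen by gene symbol, with earlier results of these data known. The cells came from mouse dorsal skin on postnatal day 3. The control library had the genotype wild type and the other library the genotype miR-200b induced, and doxycycline (Dox in the labels) was the treatment named for both. There was 1 library per genotype, so no test between them was possible, and every interval below covers counting error only. The transgene, the promoter that drives it, the number of animals behind a library and their sex were not given in the sources used here.

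A hemidesmosome rivets the keratin filaments of a basal keratinocyte to the basement membrane. Integrin α6β4 (Itga6 and Itgb4) and the transmembrane collagen XVII (Col17a1) cross the cell membrane, and inside the cell the plakins BPAG1 (Dst) and plectin (Plec) join them to keratin filaments. Outside the cell the integrin binds laminin-332, a trimer whose α3 and β3 chains are encoded by Lama3 and Lamb3. Integrin α3β1 (Itga3 and Itgb1) binds the same laminin and sits in focal adhesions linked to actin, and β1 also pairs with many other α chains. In skin, keratinocytes lose these contacts when they leave the basal layer, and inherited loss of the proteins causes blistering.

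The induced microRNA family was compared with the 9 messages by sequence first, since these letters define what a match is. The mature sequences below, from RefSeq on GRCm38.p6, are transcribed from chromosome 4. Capitals mark the seed, bases 2 to 8, the stretch that pairs with target RNA.
mmu-miR-200b-3p: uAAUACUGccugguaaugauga
mmu-miR-429-3p: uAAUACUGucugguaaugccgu
mmu-miR-200a-3p: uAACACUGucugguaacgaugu
miR-200b and miR-429 share 1 seed, whose 7-base match in a message is CAGTATT, and miR-200a has another, whose match is CAGTGTT. None of the 9 genes held either 7-base match, or the 6-base miR-200b match, in an annotated 3′ untranslated region (UTR) of a coding transcript in GENCODE vM21. Over 20856 genes with a 3′ UTR, 14.0% held the miR-200b match, 33.5% its 6-base form and 18.1% the miR-200a match. No match says only that these letters are not in the annotated windows.

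Coding exons did hold miR-200b matches in Itga6, Dst, Plec and Lama3, and 8.53% of the 20856 genes held one in coding sequence. The Itga6, Dst and Plec sites are shown 5′ to 3′ on the strand of the message (GRCm38, 29 bases each, the match in capitals). They are matches of letters only.
Itga6, exon 7 of 26, chr2:71826407-71826435, plus strand: tcggagctccaCAGTATTttgatagggat
Itga6, exon 24 of 26, chr2:71849406-71849434, plus strand: agactgtagctCAGTATTcaggagtagct
Dst, exon 10 of 98, chr1:34156600-34156628, plus strand: cactttataatCAGTATTtacagttcaaa
Plec, exon 27 of 32, chr15:76183831-76183859, minus strand: ggcacagcagcCAGTATTcaacaccctaa
Coding matches of miR-200a occurred in Itga6, Col17a1, Dst, Itgb4 and Lama3.

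Of 9072 control and 9114 induced barcodes, 4816 and 4890 were used after filtering and removal of likely doublets. The deposited totals were 100409201 and 119705137 unique molecular identifiers (UMIs, 1 per captured RNA molecule), and the cells used had medians of 14585 and 17851 UMIs. The libraries shared 74 barcodes, 10 of them among those that passed the filters. The label check was the transcript Gm13648, which spans Mir200b: it stood at 2.23 CPM (UMIs of a gene per 1000000 UMIs of the cells summed) in control and 529.5 CPM in induced epithelial cells. Epithelial cells numbered 3954 and 4100. Classes were rebuilt from clusters made without the 9 genes, and each name means cells like that type. Nearly every epithelial cluster came from 1 library, so a class is compared between libraries through different clusters. The basal class had Krt5 at 13457 and 7429 CPM and Krt14 at 24642 and 16560 CPM, with Krt1 at 143.6 and 84.0 CPM. Krt5 was required for the name and Krt14 was among its markers, so their high levels follow from the naming rule.

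The 9 genes were basal genes first. In the control library the basal epidermal class (539 cells) held the highest epithelial level of Col17a1 (584.2 CPM), Lamb3 (182.2 CPM), Plec (172.4 CPM), Itgb4 (128.9 CPM), Lama3 (91.6 CPM) and Itga3 (52.1 CPM). The exceptions in control cells were Itgb1 and Dst, which were higher in the outer root sheath class (182.2 and 335.4 CPM), and Itga6, highest in the unnamed epithelial clusters (289.2 CPM). The Itga6 counting intervals of the unnamed clusters and the basal class (283.6 CPM) overlapped, as did the Dst intervals of the outer root sheath, unnamed and basal cells. In the induced library the basal class (1080 cells) was the highest epithelial class for all genes except Dst, which stood at 445.7 CPM in the outer root sheath and 276.4 CPM in basal cells. Counts were taken at 3′ ends, so isoforms of Dst, Plec, Itga6 and Lama3 that differ elsewhere cannot be told apart.

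**Figure D1:**
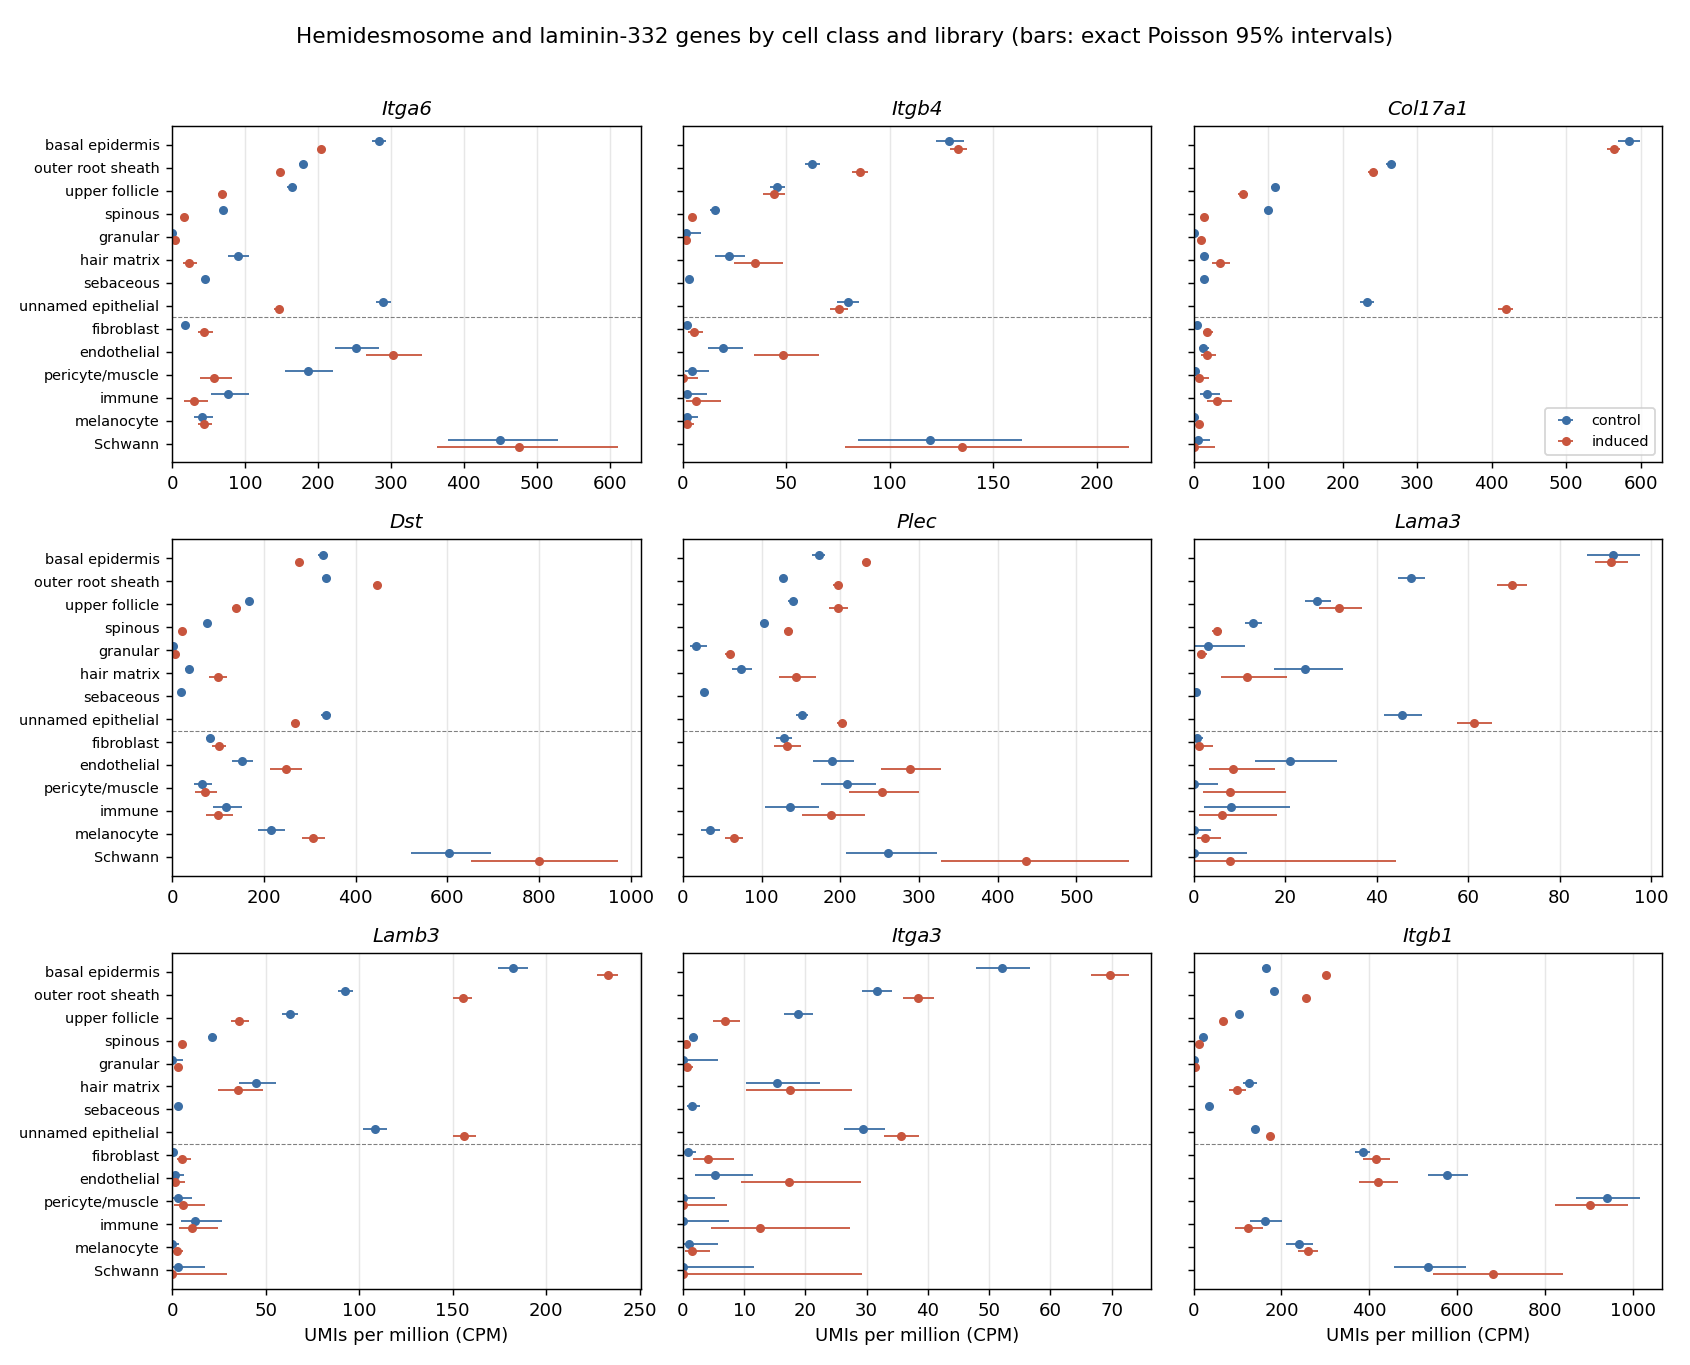
Level of each gene in CPM (horizontal axis, linear, starting at 0, a scale of its own per gene) in each class (vertical axis) and library (blue control, red induced), with exact Poisson 95% intervals; classes with under 10 cells in a library are not drawn. Basal epidermal cells lie at the right among the epithelial classes above the dashed line for most genes, while Itgb1, Itga6, Dst and Plec also reach high levels in non-epithelial classes below it.

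All 9 genes were lower in spinous than in basal cells, in both libraries. The spinous class, the suprabasal cells marked by Krt1 and Krt10, was the comparison. A call here is a difference of at least 1.5-fold whose counting interval excludes no difference, in a gene with a mean of at least 20 CPM over the 2 sides. Basal over spinous, 9 of 9 genes were called higher in the control library, against 21.2% of the 5350 genes tested, and 9 of 9 in the induced library, against 29.9% of 5251. Some members reached 20 CPM only through the basal side, so the counts are a description. The median log2 ratio of the 9 genes was 2.81 in control and 4.72 in induced cells, against 0.10 and 0.24 over all genes tested. Both contrasts of 1 library rest on that library's own clusters.

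Plec stood apart from the rest. Plectin is made in many cell types, and its message stood at 172.4 CPM in basal and 103.0 CPM in spinous control cells, and at 233.0 and 133.8 CPM in induced cells. Its log2 ratios, basal over spinous, were 0.74 (0.64 to 0.84) and 0.80 (0.73 to 0.87), the smallest of the 9 in both libraries. Itga3 had the largest, 5.03 (4.42 to 5.72) and 7.25 (6.20 to 8.56), on 22 and 7 spinous UMIs. With 5 CPM added to both sides the induced value was 3.77 for Itga3 and 4.58 for Lamb3, so that rank did not hold in induced cells. Without added CPM, Itgb4 lay between Plec and Itga3, with 128.9 CPM in basal and 15.3 CPM in spinous control cells and 133.2 and 4.39 CPM in induced cells. Col17a1 went from 584.2 to 99.5 CPM in control and from 563.7 to 14.5 CPM in induced cells, the gene whose spinous levels differed most between the libraries.

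The spinous classes were not alike in the libraries. The control class (444 cells) came from clusters E11 and E17, and the induced class (361 cells) from cluster E5. The median share of Krt1 and Krt10 among the UMIs of Krt1, Krt10, Krt5 and Krt14 was 0.40 in control and 0.98 in induced spinous cells, and Krt14 stood at 12653 and 2174 CPM. Within control cells, cluster E11 held 180.1 CPM of Col17a1 and 95.7 CPM of Itga6, and cluster E17 held 22.6 and 45.4 CPM, against 14.8 and 16.6 CPM in E5. With 4 of the 9 genes past 20 CPM, 3 were lower in induced spinous cells (Itga6, Col17a1 and Dst), against 16.2% of the genes tested, and 0 were higher, against 9.15%. Itga6 and Col17a1 reached a mean of 20 CPM only through the control side, so these counts are a description. The induced Col17a1 value lay below the fibroblast level of that library, 18.1 CPM. The part of the different keratin shares in this was not tested by class, and the keratin score gives the direct comparison.

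That score, the share of Krt1 and Krt10 among the UMIs of the 4 keratins in a cell, was cut at 0.1, 0.5 and 0.9. The ranges are parts of a scale, not cell types, and 1170 of the 7792 cells used lay near the first edge. Every gene had a lower value in each higher range in both libraries, though the Plec intervals of the middle ranges overlapped in each. Col17a1 went from 255.7 to 181.4, 69.2 and 2.996 CPM in control cells and from 402.7 to 173.4, 59.7 and 7.18 CPM in induced cells. Itgb4 went from 66.5 to 0.60 CPM and from 102.4 to 2.47 CPM between the lowest and the highest range. Plec stepped down the least, from 131.8 to 81.9 CPM and from 214.3 to 105.6 CPM. In the lowest range, 7 of the 9 genes were called higher in the induced library, against 7.78% of the genes tested, and 0 lower, against 15.2%. The log2 ratios there were 0.95 for Lamb3, 0.87 for Itgb1, 0.82 for Itga3, 0.75 for Lama3, 0.70 for Plec, 0.66 for Col17a1 and 0.62 for Itgb4, with 0.33 for Dst and -0.24 (-0.28 to -0.21) for Itga6. That range held 3309 control and 3021 induced cells, many more than the basal class (539 and 1080), so it mixes classes, and the part of the classes' shares in these ratios was not tested. In the third range Col17a1 did not differ beyond its interval between the libraries (-0.50 to 0.07). In the highest range Col17a1 lay below its level in fibroblasts (4.12 CPM in control and 18.1 CPM in induced cells), which should lack it. Fibroblasts were shallower, with medians of 9244 and 6185 UMIs against 24525 and 42676 in spinous cells. Whether the values of the highest range are background was therefore not tested. Itga6 stood there at 10.8 and 9.01 CPM, with an interval of its ratio that included no difference (-0.67 to 0.16).

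**Figure D2:**
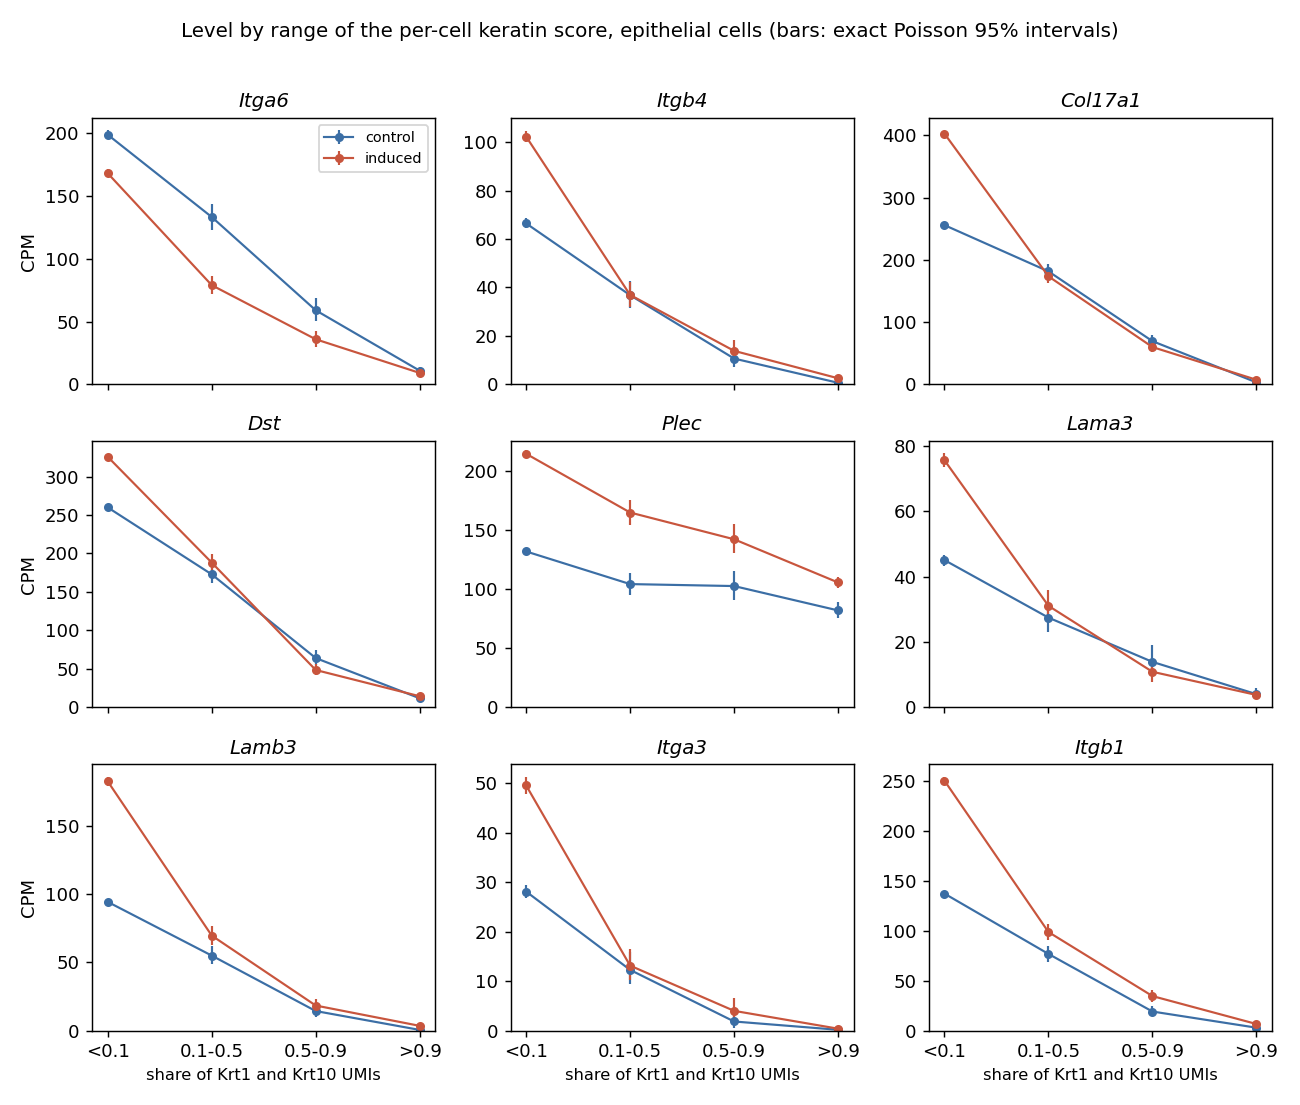
Level of each gene (vertical axis, CPM, from 0) in 4 ranges of the per-cell share of Krt1 and Krt10 UMIs (horizontal axis, from basal-like at the left to spinous-like at the right) in control (blue) and induced (red) epithelial cells, with exact Poisson 95% intervals. All 9 genes step down from left to right in both libraries, Plec the least, and Itga6 is the gene whose control points lie above the induced ones in the first 3 ranges.

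Between the libraries, the 2 chains of the hemidesmosome integrin went in opposite directions over all epithelial cells. Itga6 stood at 172.2 CPM in control and 126.5 CPM in induced cells, a log2 ratio of -0.45 (-0.48 to -0.41). Its partner Itgb4 stood at 56.5 and 75.5 CPM, a log2 ratio of 0.42 (0.36 to 0.47). Itga6 was the only 1 of the 9 genes that was lower in the induced library, and it did not reach 1.5-fold. UMIs of Itga6 per UMI of Itgb4 were 3.05 (2.94 to 3.15) in control and 1.68 (1.63 to 1.73) in induced epithelial cells. Three-prime UMIs are not divided by gene length, so this ratio is compared between libraries and not read as a stoichiometry.

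The shift of that ratio had the same direction in 4 classes of epithelial cells. It was 2.20 (2.06 to 2.35) in control and 1.54 (1.47 to 1.60) in induced basal cells, and 2.87 (2.69 to 3.06) and 1.73 (1.64 to 1.83) in the outer root sheath. In the upper follicle it was 3.60 (3.29 to 3.95) and 1.57 (1.34 to 1.84), and in the unnamed cells 3.63 (3.36 to 3.92) and 1.94 (1.81 to 2.08). In none of these classes did the intervals of the libraries overlap. Basal cells showed it through Itga6, at 283.6 and 204.7 CPM, while Itgb4 was at 128.9 and 133.2 CPM, a log2 ratio of 0.05 (-0.04 to 0.14).

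Single clusters overlapped more than the class values. Itga6 stood at 296.1 and 244.5 CPM in the control basal clusters E1 and E31. It stood at 204.3, 179.9 and 253.4 CPM in the induced basal clusters E0, E18 and E22, the last led by the stress genes Nfkbia and Atf3 and above the lower control cluster. Without the stress-led clusters the basal log2 ratio was -0.52. Schwann cells express Itga6, and their 7-gene marker list summed to 80.4 CPM in control and 16.9 CPM in induced epithelial cells. Ncam1 made up most of that sum (76.3 and 13.5 CPM), while Sox10, a transcription factor that marks Schwann cells, stood at 0.34 and 0.22 CPM, against 232.5 CPM in control Schwann cells. Cdh19 stood at 0 and 0.05 CPM, against 97.4 CPM.

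The other members were higher in the induced library over all epithelial cells, 4 of them past 1.5-fold, against 7.64% of the 5861 genes tested called higher, and 0 were called lower, against 16%. Lamb3, the laminin β3 chain, stood at 80.3 and 134.3 CPM (log2 0.74, 0.70 to 0.79). Itgb1 stood at 117.0 and 185.2 CPM (0.66, 0.63 to 0.70). Itga3 stood at 23.5 and 36.0 CPM (0.61, 0.53 to 0.70), and Plec at 124.3 and 187.6 CPM (0.59, 0.56 to 0.63). Below 1.5-fold were Lama3, from 39.0 to 56.3 CPM, Col17a1, from 220.4 to 297.5 CPM, and Dst, from 223.9 to 246.1 CPM. The median log2 ratio of the 9 genes was 0.53, against -0.12 over all genes tested. Plec and Itga3 were close to the limit of the call, at 1.51-fold and 1.53-fold.

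The makeup of the epithelium moved with these values. The basal share of epithelial cells was 13.6% in control and 26.3% in the induced library. Sebaceous cells, with 0.64 to 45.3 CPM of the members, made up 5.24% and 0.073%. Granular cells, with 0.72 to 59.5 CPM of the members in the induced library, made up 0.253% and 2.95%. The part of this makeup in the values over all epithelial cells was not tested beyond the class values that follow. Within the basal class the median log2 ratio of the 9 genes was 0.05, against 0.02 over all genes tested, and 1 gene was called higher, against 9.41%, and 0 were called lower, against 10.6%. That gene was Itgb1, at 164.4 CPM in control and 302.2 CPM in induced basal cells (log2 0.88, 0.80 to 0.95). The control basal clusters stood at 158.9 and 168.6 CPM of Itgb1 and the induced ones at 280.4 to 313.4 CPM, with no overlap. Pericytes and fibroblasts also express Itgb1. In basal cells the summed markers of pericytes and smooth muscle stood at 9.56 CPM in control and 18.6 CPM in induced cells, and those of fibroblasts at 78.3 and 19.1 CPM; their part in the result was not tested. By class, Lama3 stood at 91.6 and 91.3 CPM in basal cells and Col17a1 at 584.2 and 563.7 CPM (log2 -0.05, -0.09 to -0.01). The class signs of Lama3 and Col17a1 held in 6 and 7 of 11 alternatives, so they depended on how the cells were taken. Among these alternatives was the lowest keratin range, where Lama3 had a log2 ratio of 0.75 and Col17a1 of 0.66. That range held 3309 control and 3021 induced cells, against 539 and 1080 in the basal class. It mixes classes, and the part of their shares in its ratios was not tested. Itgb4 (0.62) and Dst (0.33) also differed there from their class values. Lamb3 (182.2 and 233.0 CPM), Itga3 (52.1 and 69.7 CPM) and Plec (172.4 and 233.0 CPM) were higher and Dst (327.8 and 276.4 CPM) lower, each by less than 1.5-fold.

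In the outer root sheath, the outer layer of the follicle that is continuous with the basal epidermis, 2 of the 9 genes were called higher in the induced library, against 9.96% of the genes tested, and 0 lower, against 14.1%. They were Lamb3, at 92.7 and 155.3 CPM (log2 0.74, 0.66 to 0.83), and Plec, at 127.0 and 196.6 CPM (0.63, 0.56 to 0.70). Lama3 stood at 47.6 and 69.5 CPM and Itgb4 at 62.6 and 85.6 CPM, both below 1.5-fold. Col17a1 was slightly lower, at 264.7 and 240.7 CPM, so that its higher value over all epithelial cells was seen neither here nor in the basal class. Dst was higher here (335.4 and 445.7 CPM, log2 0.41, 0.37 to 0.45) and lower in basal cells (log2 -0.25, -0.30 to -0.19). With clusters made on genes centred within each library, no member of the outer root sheath was called higher, and Itga6 was called lower at a log2 ratio of -0.59.

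None of the 9 genes reached a larger limit between the libraries in these comparisons. At a limit of 2-fold, 0 members were called higher or lower over all epithelial cells (against 2.92% and 5.58% of the genes tested), in basal cells (against 2.9% and 4.05%) and in the outer root sheath (against 3.41% and 4.39%).

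**Figure D3:**
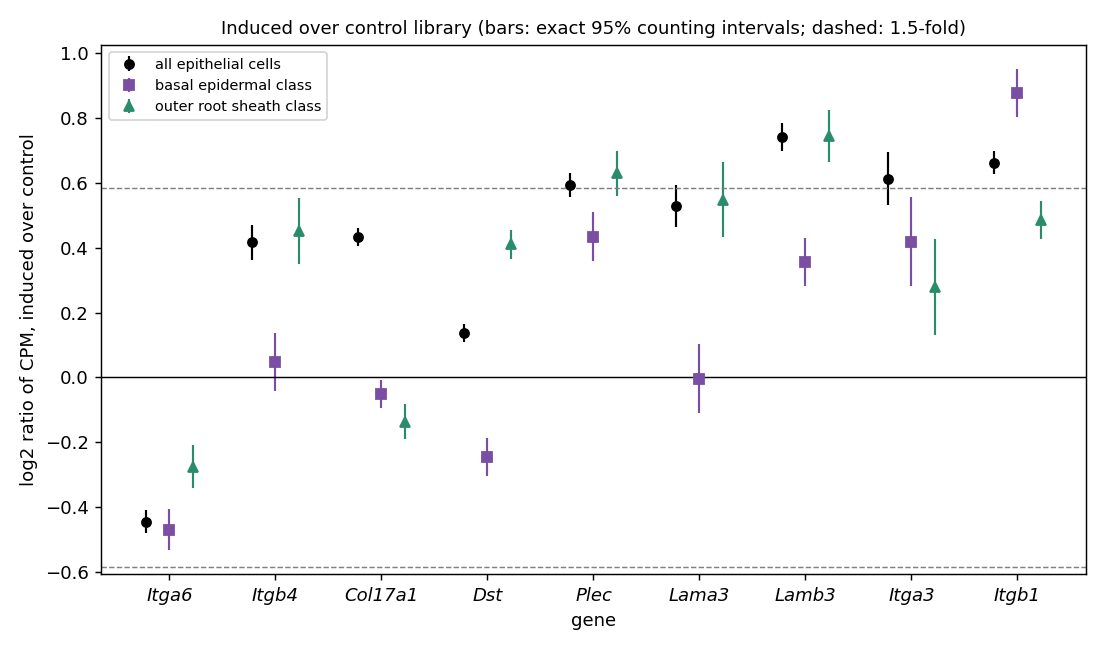
Log2 ratio of CPM, induced over control (vertical axis), for the 9 genes (horizontal axis) in all epithelial cells (circles), the basal epidermal class (squares) and the outer root sheath class (triangles), with exact 95% counting intervals and dashed lines at 1.5-fold. Itga6 is below 0 in all 3, while Itgb1 and Lamb3 are above 0 in all 3 and Col17a1 and Lama3 are at or near 0 in basal cells.

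The laminin chains Lama3 and Lamb3 were also set against each other. In basal cells Lamb3 had a log2 ratio of 0.36 (0.28 to 0.43) and Lama3 of -0.00 (-0.11 to 0.10), so their intervals did not overlap. UMIs of Lama3 per UMI of Lamb3 were 0.50 (0.47 to 0.54) in control and 0.39 (0.37 to 0.41) in induced basal cells. In the outer root sheath that ratio was 0.51 (0.47 to 0.55) and 0.45 (0.42 to 0.47), and in the upper follicle class, which rests on different clusters in the libraries, it was 0.43 (0.38 to 0.49) and 0.88 (0.72 to 1.08). In the upper follicle clusters with cells of both libraries it was not higher in induced than in control cells. Cluster E23 held 13 Lama3 and 12 Lamb3 UMIs in control and 68 and 83 in induced cells, and E25 held 29 and 29 in control and 58 and 71 in induced cells.

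Laminin-332 and hemidesmosome genes were followed across 35 epithelial clusters of at least 50 cells. Plec spanned 9.55-fold from the lowest to the highest cluster, and the others from 78.0-fold (Col17a1) to 304.6-fold (Lama3). Sebaceous cluster E26, of 145 control and 3 induced cells, was the lowest for Itgb4, Col17a1, Plec, Lama3 and Lamb3, with 0.76 CPM of Itgb4 and 0.38 CPM of Lama3. Granular cluster E27 was the lowest for Itga6, Dst and Itgb1. Across the clusters the closest pair by Pearson was Itgb4 and Lamb3 (0.97, Spearman 0.91, n = 35) and by Spearman Lama3 and Lamb3 (0.93, Pearson 0.95). The least close by both was Itga6 and Plec (0.47 and 0.28). Clusters share libraries and their depth, so these are descriptions. Over 14 combinations of class and library, the non-members whose levels followed the mean profile of the 9 genes most closely were Marveld1 (Pearson 0.98), Thbs1, Megf6, Epb41l3 and Tmem176b (each 0.96), of 5925 genes compared.

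The upper follicle gave one direction as a class and the other within its shared clusters. As a class, 4 of the 8 members past 20 CPM were called lower in the induced library, against 20.7% of the genes tested, and 0 higher, against 11.6%. The lower ones were Itga6 (164.3 and 68.7 CPM), Col17a1 (108.9 and 66.5 CPM), Lamb3 (62.8 and 35.9 CPM) and Itgb1 (103.7 and 67.7 CPM). Control cells of the class came mostly from clusters E15 and E19, which held 225 and 201 control cells and 0 and 6 induced cells. E15 was led by the heat shock genes Hspa1a and Hspa1b. Itga6 stood at 231.4 and 254.5 CPM in E15 and E19. In both upper follicle clusters with cells of both libraries, all 9 members were higher in induced cells.

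Those clusters were E23, led by Pinlyp and the companion layer keratin Krt75, with 74 control and 109 induced cells, and E25, led by Wfdc18 and Krt6a, with 94 and 61. The name of E23 was not stable: with the stricter cell filter and with library-centred clustering the cluster led by Pinlyp and Krt75 was named companion layer, the follicle layer inside the outer root sheath. That of E25 was not stable either: with doublets kept, the cluster led by Wfdc18 (84 control and 62 induced cells) was unnamed. In E23 Col17a1 stood at 7.72 and 37.2 CPM (log2 2.27, 1.68 to 2.91), Dst at 16.5 and 103.3 CPM, and Lamb3 at 3.19 and 24.7 CPM on 12 and 83 UMIs. In E25 Itgb4 stood at 34.9 and 85.1 CPM (log2 1.29, 0.75 to 1.84) and Itgb1 at 42.2 and 107.2 CPM. Itga6 was higher in induced cells too, by a log2 ratio of 0.42 (0.06 to 0.77) in E23 and 0.84 (0.33 to 1.36) in E25. The median over all genes tested was -0.18 and -0.05. Fibroblast levels, a rough guide to free RNA since fibroblasts were shallower, were 4.12 and 18.1 CPM for Col17a1 and 0.21 and 5.24 CPM for Lamb3. The control values of Col17a1 and Lamb3 in E23 were within a few CPM of the control fibroblast levels. The interval of Plec in E25 included 0.

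In the unnamed epithelial clusters (781 and 934 cells) Itga6 was the 1 member called lower, at 289.2 and 146.1 CPM, against 20.7% of the genes tested. Col17a1 was the 1 called higher, at 232.6 and 419.1 CPM, against 10.7%. These clusters met no class name, and different ones held most cells of each library. In E29 (23 control and 84 induced cells) and E30 (82 and 20), which held both, the Itga6 intervals included 0 (log2 0.41, -0.80 to 1.83, and -0.33, -0.81 to 0.11). Col17a1 had a log2 ratio of 1.77 (0.66 to 3.13) in E29, on 7 control UMIs, and of 0.09 (-0.31 to 0.47) in E30.

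Hair matrix cells, the dividing cells at the base of the follicle, came from a single cluster, E28, with 64 control and 52 induced cells. Here Itga6 stood at 90.4 CPM in control and 22.4 CPM in induced cells, on 164 and 23 UMIs (log2 -2.02, -2.71 to -1.38). Of the 7 members past 20 CPM it was the 1 called lower, against 17.7% of the genes tested, and Dst (35.8 and 99.1 CPM), Col17a1 (14.3 and 36.0 CPM) and Plec (73.9 and 143.8 CPM) were called higher, against 12.3%. Col17a1 reached a mean of 20 CPM only through the induced side, so its place in the count is a description. Fibroblasts of the same libraries held 4.12 and 18.1 CPM of Col17a1. In the outer root sheath cluster with cells of both libraries, E7 (285 and 33 cells), the log2 ratios were 0.69 (0.10 to 1.23) for Itgb4, 0.38 (0.15 to 0.61) for Col17a1 and 0.52 (0.06 to 0.95) for Lamb3, the last 2 below 1.5-fold, and the intervals of the other 6 members included 0. The median over all genes tested there was 0.06. Itga6 stood there at 278.6 and 206.4 CPM (-0.90 to 0.00).

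**Figure D4:**
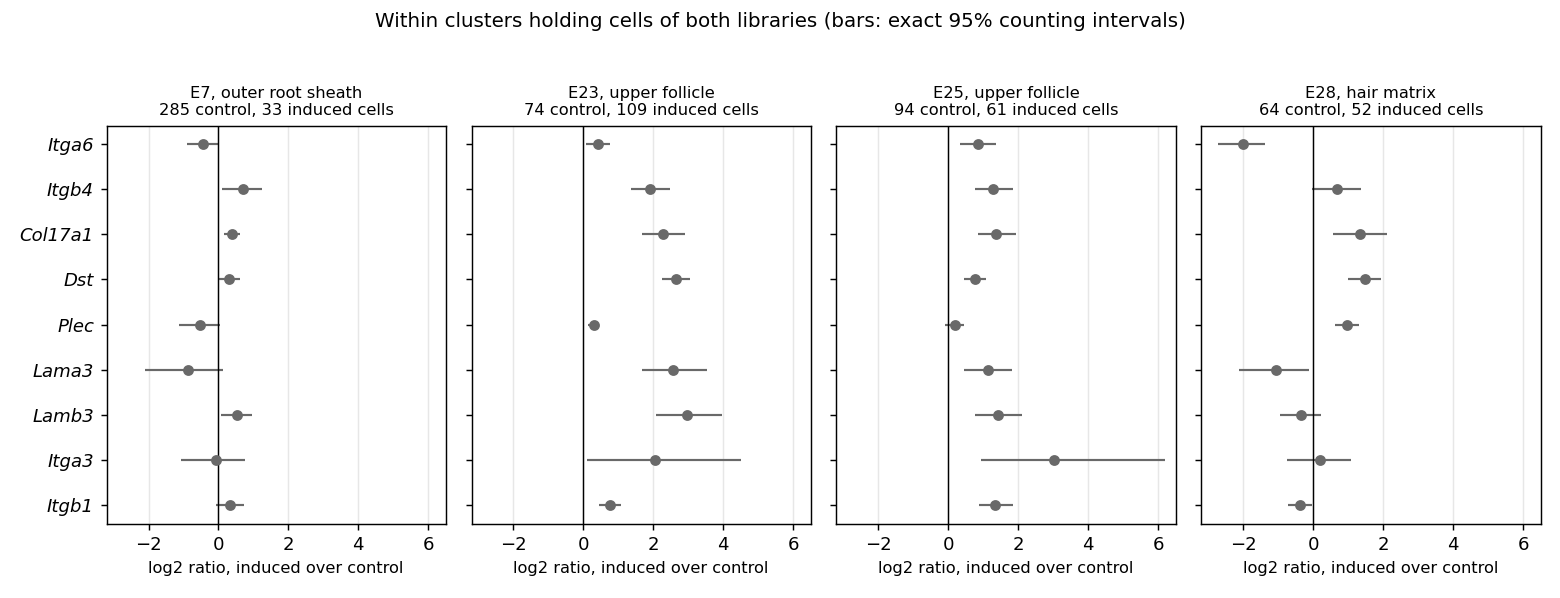
Log2 ratio of CPM, induced over control (horizontal axis), for the 9 genes (vertical axis) within 4 named clusters that hold cells of both libraries, with exact 95% counting intervals. All points lie right of 0 in the upper follicle clusters E23 and E25, and Itga6 lies left of 0 in E28.

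The follicle classes were set against the basal class within each library as well. Outer root sheath over basal, 6 of 9 genes were called lower in control cells, against 8.35% of the genes tested, and 3 in induced cells, against 6.55%. In control cells 0 were called higher, against 19.1%. Itgb4, Col17a1 and Itga3 were called lower in both libraries, and Itga6, Lama3 and Lamb3 in control cells. In induced cells these 3 were below the basal class by less than 1.5-fold, Lamb3 at the limit (155.3 and 233.0 CPM, log2 -0.58, -0.64 to -0.53), and the difference between the libraries was not tested. Dst was called higher in the induced outer root sheath, against 12.7% of the genes tested. Upper follicle over basal, 8 of 9 genes were called lower in control cells, against 8.09%, and 8 in induced cells, against 20.1%, Plec being the exception in both. Itga3 reached a mean of 20 CPM there only through the basal side. At 2-fold, the outer root sheath over basal comparison had 2 members lower and 0 higher in control cells (against 4.71% and 8.01%) and 1 lower and 0 higher in induced cells (against 2.83% and 5.34%). For the upper follicle at 1.5-fold, no member was called higher (0 in both, against 17.6% and 19.4%).

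Shares of cells with a UMI were compared at equal depth. After each cell was thinned to 2000 UMIs, 66.8% (62.6 to 70.8) of control and 64.0% (61.0 to 66.9) of induced basal cells had a Col17a1 UMI. For Itga6 the shares were 43.6% (39.4 to 47.9) and 34.0% (31.2 to 36.9), and for Lamb3 30.1% (26.2 to 34.1) and 38.2% (35.3 to 41.2). Fibroblasts, which should lack Col17a1, gave shares of 1.01% in control and 2.51% in induced cells. The median depth was 18876 and 25731 UMIs in basal cells and 9244 and 6185 UMIs in fibroblasts. Without thinning, 99.1% and 99.6% of basal cells had a Col17a1 UMI. In spinous cells the thinned Col17a1 share was 16.3% (13 to 20.1) in control and 2.50% (1.15 to 4.69) in induced cells, the latter close to the fibroblast share. Spinous cells were deeper than fibroblasts before thinning, with medians of 24525 and 42676 UMIs. The fibroblast share is therefore no measure of background in them.

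Other genes of the adhesion site were read from fixed lists over all epithelial cells, where 7.64% of the genes tested were called higher and 16% lower. Of the hemidesmosome partners reported here (Cd151, Erbin, Col7a1, Krt5 and Krt14), 0 were called in either direction. Classes differed: in basal cells Krt5 was called lower, against 10.6% of the genes tested. Col7a1 had a log2 ratio of -0.46 (-0.54 to -0.38) there, against 0.38 over all epithelial cells. Col7a1, Krt5 and Krt14 were called lower in spinous cells (against 16.2%) and higher in unnamed cells (against 10.7%). Of 8 other laminin chains, 3 were tested, and Lamc1 (44.3 and 23.7 CPM) and Lamb2 (32.2 and 21.1 CPM), chains of other laminins, were called lower. Of 11 other integrins, 2 were tested, and Itgb5 was called higher (40.9 and 66.1 CPM). Of 15 basement membrane genes, 11 were tested. Col4a2, a collagen IV chain, was called higher (28.8 and 54.2 CPM). Npnt, which encodes the integrin α8β1 ligand nephronectin, was called lower (50.1 and 14.98 CPM), as were Frem2 (32.5 and 14.5 CPM) and Fras1 (24.8 and 16.4 CPM), proteins of the Fraser complex. Npnt, Frem2 and Fras1 passed the 20 CPM mean only through the control side.

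Focal adhesion genes numbered 12, of which 8 were tested. Tln1, encoding talin, which links β1 integrins to actin, was called lower (56.9 and 19.6 CPM, log2 -1.54, -1.62 to -1.46), and Zyx, encoding zyxin, higher (23.6 and 35.9 CPM). Tln1 also passed the 20 CPM mean only through the control side. In basal cells Tln1 stood at 74.5 and 24.9 CPM beside the higher Itgb1. All 5 genes of the list of other plakins and desmosome plaque proteins were tested, and Ppl (90.1 and 181.2 CPM), Evpl (40.0 and 68.6 CPM) and Dsp (549.8 and 891.3 CPM), which belong to desmosomes and the cornified envelope, were called higher. In basal cells those 3 had log2 ratios of 0.19, 0.10 and 0.24. Of 5 genes for laminin processing, 3 were tested and 0 were called in either direction.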

How the data were processed

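The authors deposited raw UMI counts per gene and barcode, from the 10x Genomics 3′ v3.1 protocol per the labels' protocols, and the submitters' processing notes name Cell Ranger 6.0.0 and mm10. The cell-calling settings were not given in the sources used here. Epidermal and dermal cells were dissociated apart and mixed, per the labels.

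Barcodes with at least 1000 UMIs, 500 genes and under 15% mitochondrial UMIs were kept, and the 7% with the highest Scrublet scores in each library were removed, since the automatic threshold marked 3 and 1 barcodes. Cells were clustered with scanpy 1.11.5 and leidenalg 0.10.2 (Leiden resolution 1 for all cells, 2 for epithelial cells) without the 9 genes, the listed adhesion genes, Krt5, Krt14, cell cycle, sex-linked, mitochondrial, ribosomal and haemoglobin genes. Naming a cluster took at least 3 markers, each seen in 25% of cells and 1.5-fold above the rest of the library, with Krt5 required for basal cells.

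Counts were summed per class and library and scaled to 1000000 UMIs, with exact Poisson intervals. Ratios carry exact conditional binomial intervals with nothing added, and shares Clopper-Pearson intervals, all at 95%. A call is 1.5-fold with an interval that excludes 0 on the log2 scale and a mean of at least 20 CPM. Steps were tested on simulated counts. Named genes are all 9 members, the called genes of each list (up to 3 each way) and the 5 closest profiles. The members and lists were chosen with earlier results of these data known, and the naming thresholds came from an earlier treatment of them. Some genes of the lists are not reported here.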

Additional observations from a re-analysis of the deposited data

Results flagged for a closer look

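For several members the induced over control ratio had opposite signs in different groups of cells, with counting intervals that excluded 0 in each. The differences between the groups were not tested, since each rests on 1 library per genotype. Between named classes, which mostly rest on different clusters in the libraries, the spinous class held the lowest log2 ratio of these members: -1.80 for Itgb4, -2.77 for Col17a1, -1.85 for Dst, -1.37 for Lama3, -2.10 for Lamb3, -1.79 for Itga3 and -0.93 for Itgb1. Among class values above 0 whose intervals excluded 0, their highest were 0.45 for Itgb4, 0.55 for Lama3 and 0.74 for Lamb3 in the outer root sheath, 0.42 for Itga3 and 0.88 for Itgb1 in basal cells, and 1.33 for Col17a1 and 1.47 for Dst in the hair matrix. Dst also had a log2 ratio of -0.25 in the basal epidermal class and 0.41 in the outer root sheath class. In the spinous class Itgb4, Lama3, Lamb3, Itga3 and Itgb1 did not reach a mean of 20 CPM. The median keratin score of that class was 0.40 in control and 0.98 in induced cells. In the third keratin range the log2 ratios were 0.38 for Itgb4, -0.21 for Col17a1, -0.40 for Dst and -0.35 for Lama3. They were 0.36 for Lamb3, 1.12 for Itga3 and 0.86 for Itgb1, and only the Dst and Itgb1 intervals excluded 0.

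Within named clusters that held cells of both libraries, Itga6 had a log2 ratio of -2.02 in hair matrix cluster E28 and of 0.42 and 0.84 in upper follicle clusters E23 and E25. For Lama3 the values were -1.06 in E28 (12 induced and 44 control UMIs), 2.55 in E23 and 1.13 in E25. For Itgb1 they were -0.38 in E28, 0.76 in E23 and 1.35 in E25.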

How the results depend on the processing

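No paired analysis was possible because there was 1 library per genotype. The 9 genes had 656 values under the alternatives, of which 642 kept their sign, and no called value reversed. Some alternatives, such as the 2-fold limit and CPM added to both sides, cannot change a sign, so these counts include outcomes fixed in advance. Leaving out stress-led clusters, clusters under 2000 UMIs and the within-cluster values were added after seeing the data. Over all epithelial cells every member kept its sign under all 13 alternatives. The number called higher there was 2 with 5 CPM added and 0 at 2-fold, and the median was 0.65 relative to the median gene. In basal cells the median was 0.36 and 4 genes were called higher at Leiden resolution 1, 0.15 and 2 with cells thinned, and 0 were called at 2-fold. In the outer root sheath 1 was called higher with the stricter cell filter, 0 higher and 1 lower with library-centred clustering, and 0 higher at 2-fold. The control median of basal over spinous was 2.55 with doublets kept, 2.50 with the stricter filter, 2.53 at Leiden resolution 1, 2.49 library-centred, 2.50 with 5 CPM added, 2.45 as the mean of per-cell CPM and 2.29 thinned. The induced median was 4.98 with the stricter filter, 3.77 with 5 CPM added, 4.48 relative to the median gene and 4.03 thinned, where Itga3 gave no value. For outer root sheath over basal, the control median was -0.91 relative to the median gene, and 2 were lower at 2-fold. The induced median was -0.58 at Leiden resolution 1, -0.59 library-centred (5 lower), -0.56 relative to the median gene and -0.36 per cell. No gene was higher there with the stricter filter (0) or at 2-fold (0 higher, 1 lower). The causes were not tested. Levels of a few CPM in spinous, granular and sebaceous cells rest on few UMIs, and the part of free RNA in them was not tested.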

Other observations

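Several of the 9 genes were also present outside the epithelium. Schwann cells (31 control and 17 induced cells) held Itga6 at 449.4 and 475.5 CPM, Itgb4 at 119.4 and 134.7 CPM, Dst at 603.3 and 800.5 CPM, Itgb1 at 534.2 and 681.6 CPM and Plec at 260.8 and 435.9 CPM, with Col17a1 at 6.28 and 0 CPM and Itga3 at 0 in both. Integrin α6β4 is also the laminin receptor of myelinating Schwann cells. Endothelial cells held Itga6 at 252.2 and 302.8 CPM with Itgb4 at 19.3 and 48.2 CPM. Pericytes and smooth muscle cells had the highest Itgb1 of any class, 941.4 and 903.4 CPM, with Itga3 at 0 in both libraries. Itga6 stood there at 185.7 CPM in control and 57.2 CPM in induced cells, on 130 and 29 UMIs, and the induced class also held a second cluster, N32. Melanocytes held Dst at 215.3 and 306.4 CPM and Itgb1 at 240.0 and 260.3 CPM.

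The share of a gene's UMIs that lay in epithelial cells was 99.8% in both libraries for Lamb3, 99.7% for Col17a1 in both, and 99.4% and 99.1% for Itga3. It was lowest for Itgb1, 69.0% in control and 88.9% in induced cells. Such a share depends on how many dermal cells a library held, and fibroblasts numbered 502 in control and 268 in the induced library.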
